A study of Schizosaccharomyces pombe with 2 samples.

Results

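The Sty1 stress kinase pathway of fission yeast, Schizosaccharomyces pombe, was followed through 10 genes out of the 5076 listed, from the response regulator gene mcs4 down to the transcription factor genes atf1, pcr1 and pap1. The genes were taken by their identifiers, as known parts of the pathway, and the choice was made with earlier results of these data known. RNA sequencing compared 1 library of wild-type cells with 1 library of ppr10 deletion cells, both from cultures in logarithmic growth. Ppr10 belongs to the pentatricopeptide repeat proteins, a family of RNA-binding proteins of mitochondria and plastids, and the submitters' stated aim was to find what causes cell death. Uniquely mapped reads assigned to genes came to 17053000 for the wild type and 16885000 for the deletion, both rounded. The deleted gene itself had 1879 wild-type reads and 12 deletion reads, or 71.2 against 0.459 RPKM (reads scaled to gene length and library size). Strain background, medium, the marker used for the deletion and the mating type are not stated in the labels. With 1 library per genotype, differences cannot be set against the spread between cultures, and no p-value can be given. In bulk cultures, fewer cells with a transcript and less of it per cell cannot be told apart.

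Sty1 is a mitogen-activated protein kinase (MAPK) of the same family as mammalian p38 and budding yeast Hog1. In the unstressed cell it is mostly inactive, and osmotic, oxidative, heat or nutrient stress switches it on through a relay of kinases. Histidine kinases pass a signal through a phosphotransfer protein to Mcs4, which binds the MAPK kinase kinases Wis4 and Win1. These activate the MAPK kinase Wis1, and Wis1 phosphorylates Sty1 on a threonine and a tyrosine. The tyrosine phosphatases Pyp1 and Pyp2 reverse that step. Active Sty1 acts in the nucleus on Atf1, a basic leucine zipper (bZIP) factor that pairs with Pcr1, while Pap1, a bZIP factor related to AP-1, answers peroxide through its own oxidation. The kinase relay works through phosphorylation, which RNA levels do not measure.

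Along the Sty1 pathway, none of the 10 genes was higher or lower in the deletion library by the rule of size used for all genes, a 2-fold difference of RPKM + 1 at a mean of at least 1 RPKM. All 10 were above that mean. By the same rule 2.79% of the 4986 genes at that level were higher and 1.14% lower. The kinase genes and mcs4 stood between 1.03 and 1.21 times the wild-type level, both phosphatase genes, atf1 and pap1 between 1.46 and 1.80 times, and pcr1 at 0.790. The log2 difference was above 0 for 9 of the 10, against 57.1% of all tested genes, and for 8 when the libraries were scaled to the median gene or with TMM or median-of-ratios factors, which took wis4 to −0.01. The exact 95% interval of the ratio covers counting error only and was taken with the RPKM scaling alone. It lay wholly above 1 for 7 members and wholly below 1 for 1, where 40.7% and 29.7% of tested genes did so. With a limit of 1.5-fold in place of 2-fold, atf1 and pyp2 were higher and no member was lower, against 7.94% and 4.49% of tested genes. The gene pyp1, at a ratio of 1.52 without the added 1 RPKM, fell just short of that limit with it. The median log2 difference was 0.21 over the 10 genes and 0.05 over all tested genes.

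**Figure D1:**
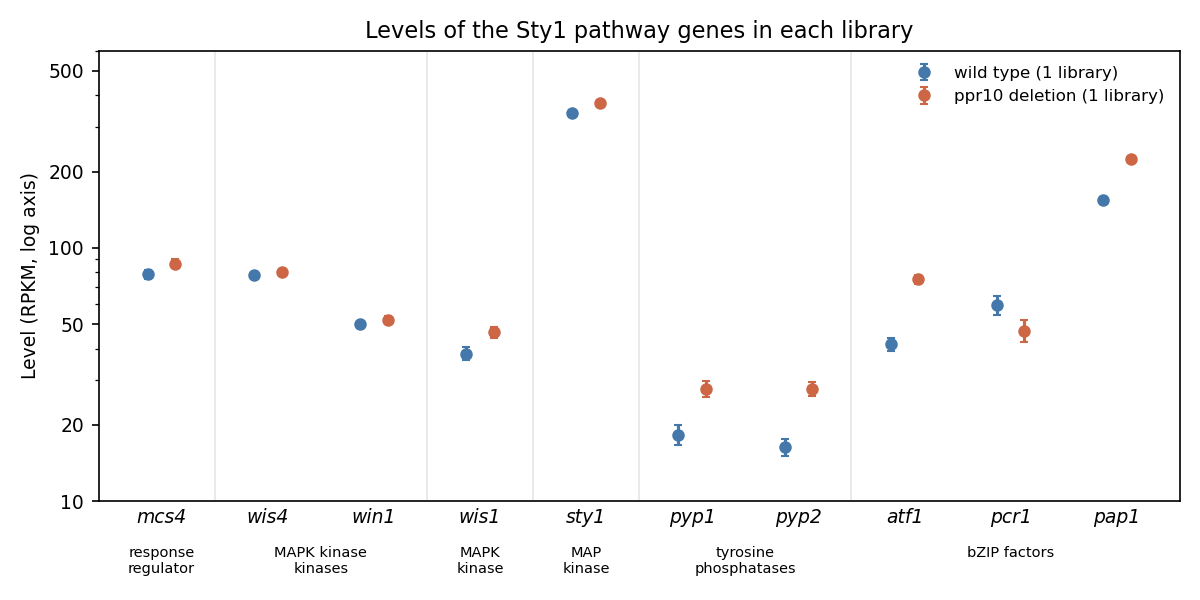
Level of each gene in RPKM, on a log axis, in the wild-type library and the ppr10 deletion library, ordered along the pathway, where each point is 1 library and each bar its exact 95% interval for counting error. The gene sty1 stands highest in both libraries, at 341.0 and 374.7 RPKM, and atf1 and pcr1 change places.

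The pathway genes covered a wide range of levels. In the wild type the order was sty1, pap1, mcs4, wis4, pcr1, win1, atf1, wis1, pyp1 and pyp2, from 341.0 down to 16.3 RPKM. The counting intervals of neighbours overlapped for mcs4 and wis4, for atf1 and wis1, and for pyp1 and pyp2. In the deletion library the order ran from 374.7 RPKM for sty1 to 27.7 for both phosphatase genes. There atf1 had moved from the seventh place to the fifth and pcr1 from the fifth to the seventh. The intervals of wis4 and atf1, of win1 and pcr1, of pcr1 and wis1, and of both phosphatase genes overlapped. Of the summed RPKM of the 10 genes, sty1 made up 39.0% for the wild type and 36.0% for the deletion, and pap1 made up 17.6% and 21.6%.

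The gene mcs4 (SPBC887.10, chromosome II) encodes the response regulator at the head of the relay. It had 2100 wild-type reads and 2291 deletion reads, or 78.5 against 86.5 RPKM, a ratio of 1.10 (95% interval 1.04 to 1.17). Its log2 difference of 0.14 lay at percentile 61.3 among all tested genes, so the gene stood near the middle of the transcriptome.

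The MAPK kinase kinase genes had the ratios closest to 1 among the members. The level of wis4 (SPAC9G1.02, chromosome I) was 78.1 RPKM in the wild-type library, from 5599 reads, and 80.3 RPKM in the deletion library, from 5706. Its ratio was 1.03 (0.992 to 1.07). The other kinase gene, win1 (SPAC1006.09, chromosome I), had 3667 and 3788 reads, or 49.9 and 52.0 RPKM, with a ratio of 1.04 (0.997 to 1.09). Both ratio intervals include 1, so at this depth and with the RPKM scaling neither difference exceeded counting error. TPM scaling gives both libraries the same summed level. It took the log2 differences from 0.04 to 0.08 for wis4 and from 0.06 to 0.10 for win1. The intervals were not recomputed for that scaling. Per length, wis4 stood at 1.56 times win1 (1.501 to 1.632) within the wild-type library and at 1.54 times (1.48 to 1.61) within the deletion library, a change of 0.987 (0.930 to 1.05). Such a ratio within a library does not depend on how the libraries are scaled.

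The next kinase down, Wis1, is the activator of Sty1. Its gene wis1 (SPBC409.07c, chromosome II) had 1186 wild-type reads and 1425 deletion reads, or 38.3 against 46.4 RPKM. The ratio of 1.21 (1.12 to 1.31) was the largest among the kinase genes of the pathway, and its log2 difference of 0.27 lay at percentile 76.3. In both libraries wis1 was the lowest of the kinase genes.

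The MAP kinase gene sty1 (SPAC24B11.06c, chromosome I) had 6106 wild-type reads and 6644 deletion reads. That gave 341.0 and 374.7 RPKM, levels above those of 90.8% and 91.8% of all listed genes. The ratio was 1.10 (1.06 to 1.14) and the log2 difference 0.14, at percentile 61.0 among all tested genes. The tenth of genes with the highest mean level had a median log2 difference of −0.26, and within these 499 genes sty1 lay at percentile 78.6. The 3 genes nearest to sty1 in level over the 2 libraries were nap2, a nucleosome assembly protein gene (342.3 and 368.4 RPKM), the protein kinase gene hal4 (333.4 and 366.1) and the proteasome subunit gene rpn8 (340.5 and 361.5). Likeness was the Euclidean distance of log2(RPKM + 1), which was 0.025, 0.047 and 0.052, and over 2 libraries it says only that the levels were close.

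The genes of both tyrosine phosphatases that switch Sty1 off were the weakest of the pathway in both libraries, and both had more reads in the deletion. The gene pyp1 (SPAC26F1.10c, chromosome I) had 515 wild-type reads and 773 deletion reads, or 18.3 against 27.7 RPKM. Its ratio was 1.52 (1.35 to 1.70), and its log2 difference of 0.57 lay at percentile 91.9. The gene pyp2 (SPAC19D5.01, chromosome I) encodes the phosphatase whose transcription is known to be induced by stress through Sty1 and Atf1. It had 594 and 999 reads, or 16.3 against 27.7 RPKM, with a ratio of 1.70 (1.53 to 1.88) and a log2 difference of 0.73 at percentile 94.6. The ratio of pyp2 to pyp1 was 0.893 (0.792 to 1.01) within the wild-type library and 1.0 (0.910 to 1.10) within the deletion library. The change between these ratios was 1.12 (0.961 to 1.31), so a difference between the pair was not detectable at this depth.

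**Figure D2:**
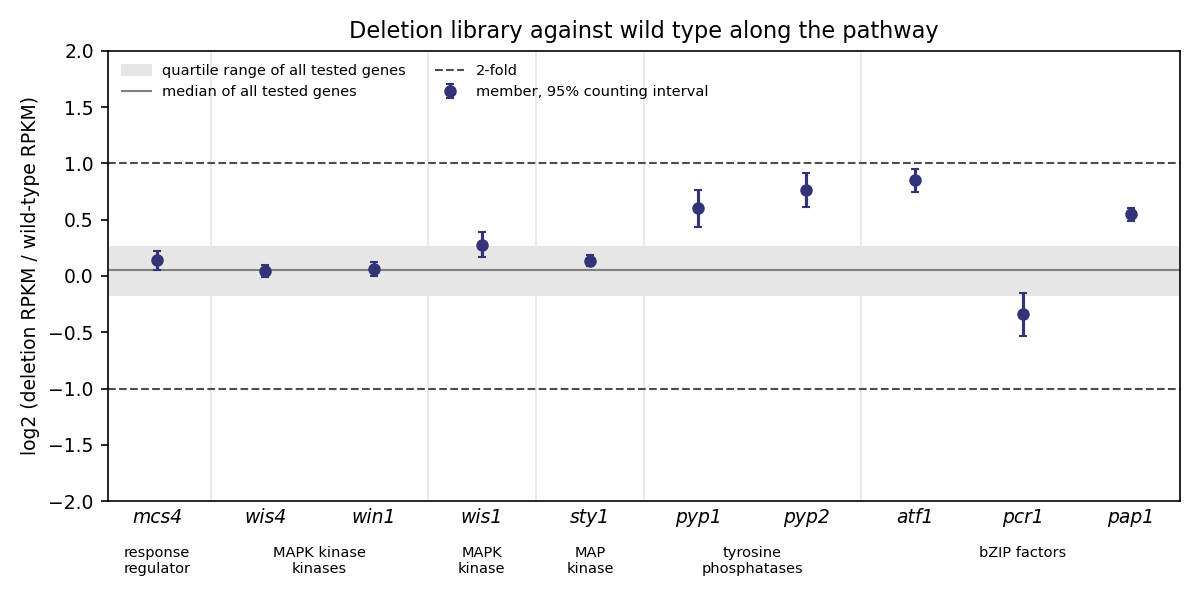
Log2 ratio of deletion to wild-type RPKM for each gene, ordered along the pathway, with exact 95% intervals for counting error. The grey band and line give the quartiles (−0.17 and 0.26) and the median (0.05) of the log2 differences of all tested genes with 1 RPKM added, and the dashed lines mark 2-fold. The kinase genes lie in or at the edge of the band, the phosphatase genes, atf1 and pap1 above it, and pcr1 below it.

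The transcription factor genes did not share a direction, with atf1 and pap1 above the wild-type level and pcr1 below it. The gene atf1 (SPBC29B5.01, chromosome II), whose protein is the main bZIP factor under Sty1, had 1207 wild-type reads and 2156 deletion reads. Its level was 41.6 RPKM (39.3 to 44.0) against 75.1 (71.9 to 78.3), and the counting intervals did not overlap. The ratio of 1.80 (1.68 to 1.94) was the highest of the 10 genes. Its log2 difference of 0.84 lay at percentile 96.2 among all tested genes and 98.4 among the 498 of like level. The nearest genes by the same distance were SPCC70.10, of uncharacterised product (43.1 and 76.2 RPKM), mis20 (39.3 and 75.2) and the RING finger protein gene san1 (44.2 and 74.0), at 0.054, 0.080 and 0.089.

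Pcr1 is the partner with which Atf1 forms a dimer on DNA. Its gene pcr1 (SPAC21E11.03c, chromosome I), the shortest of the members at 516 coding bases, had 523 wild-type reads and 409 deletion reads, or 59.4 RPKM (54.5 to 64.8) against 46.9 (42.5 to 51.7). It was the only member with fewer reads in the deletion. The ratio was 0.790 (0.692 to 0.901), and the log2 difference of −0.33 lay at percentile 13.3 among all tested genes and 7.62 among the 499 of like level. Within the wild-type library atf1 stood at 0.700 times pcr1 (0.631 to 0.777) per length, and within the deletion library at 1.60 times (1.44 to 1.78). The ratio of the partners therefore differed 2.28-fold between the libraries (1.97 to 2.65), the largest change among the 5 pairs compared. The genes atf1 and pcr1 are the members with the highest and the lowest ratio to the wild type. How often other gene pairs change as much was not computed.

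The third factor gene, pap1 (SPAC1783.07c, chromosome I), was the second most abundant of the pathway. It had 4351 wild-type reads and 6293 deletion reads, or 153.8 against 224.6 RPKM, with a ratio of 1.46 (1.41 to 1.52). The log2 difference of 0.54 lay at percentile 90.9. Relative to sty1 within a library, pap1 stood at 0.451 (0.434 to 0.469) for the wild type and 0.599 (0.579 to 0.621) for the deletion, and atf1 at 0.122 (0.115 to 0.130) and 0.200 (0.191 to 0.210). Both factor genes thus stood higher against the kinase gene in the deletion library, by 1.33-fold (1.26 to 1.40) for pap1 and 1.64-fold (1.52 to 1.78) for atf1.

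**Figure D3:**
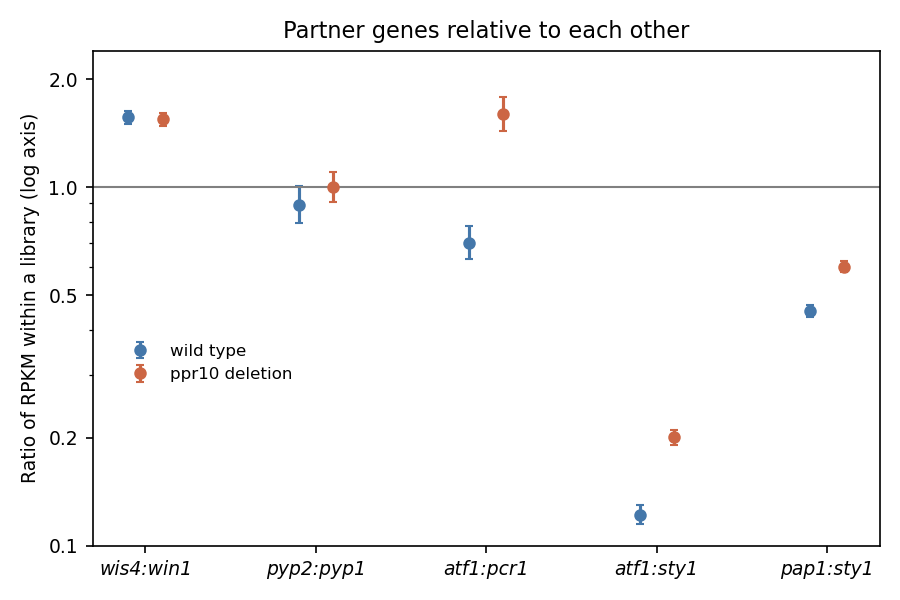
Ratio of RPKM between partner genes within each library, on a log axis, with exact 95% intervals for counting error; the line marks equal levels per length. The ratio of atf1 to pcr1 lies at 0.700 for the wild type and 1.60 for the deletion, while that of wis4 to win1 is 1.56 and 1.54.

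Several features of the 10 member genes are given as a description. Their shares over all listed genes were not counted, so none can be called particular to the pathway. Each had a single coding exon, and the deposited length equalled the coding length in the reference annotation for all 10. Reads covered between 97.7% and 99.95% of the length of each in both libraries, by the deposited coverage score. The members lie on chromosome I (7) and chromosome II (3). The coding part of 8 members is overlapped on the opposite strand by at least 1 annotated long noncoding RNA, and atf1 and pcr1 are the ones with none. Whether the counting used strand is not stated in the labels or the table, so for these 8 genes reads of the antisense RNA cannot be told apart from reads of the gene. Of the 19 adjacent protein-coding genes in the table, 9 had positive and 10 negative log2 differences, beside 57.1% positive over all tested genes. The oligopeptide transporter gene isp4 beside atf1 (−1.46) and the ribosomal protein gene rpl3002 beside win1 (−1.10) were past 2-fold. Both were lower, as were 1.14% of all tested genes by that rule. Both neighbours were picked out after their values were seen. The value of rpl3002 may be uncertain, since it has a close paralogue, rpl3001, which lies beside wis4 (−0.54). How reads map between the paralogues was not tested.

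In the list of 7 for the phosphorelay and redox input, 1 gene was higher by the 2-fold rule, beside 2.79% of all tested genes. The other 6 were past it in neither direction, and the median log2 difference of the list was 0.13. The histidine kinase genes stood at 1.06 times the wild type (mak1), 1.21 (mak2) and 0.982 (mak3). The phosphotransfer protein gene mpr1 had 285 reads against 310 and a ratio of 1.10 (0.932 to 1.29), which includes 1. Prr1, a second response regulator that acts as a transcription factor, had a gene ratio of 1.14 (1.10 to 1.19), and the gene of the glyceraldehyde-3-phosphate dehydrogenase Tdh1, which binds Mcs4, one of 1.02. The gene that was higher, tpx1, encodes a peroxiredoxin that passes peroxide signals to Sty1 and Pap1, and stood at 974.2 RPKM in the wild type and 2.23 times that in the deletion (2.18 to 2.29).

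Phosphatases of the PP2C class, Ptc1 and Ptc3 among them, remove the phosphate from the threonine of Sty1. None of the 4 genes listed was past 2-fold, where 2.79% of all tested genes were higher and 1.14% lower. Their median log2 difference was −0.01, beside 0.05 over all tested genes. The gene ptc1 had 569 wild-type reads and 855 deletion reads, a ratio of 1.52 (1.36 to 1.69) like that of pyp1, whereas ptc2 stood at 1.04, ptc3 at 0.958 and ptc4 at 0.809.

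Among 7 genes of kinases, RNA-binding proteins and other proteins that work with or below Sty1, none was past 2-fold. By that rule 2.79% of all tested genes were higher and 1.14% lower. Of the 7 genes, 6 had positive log2 differences, beside 57.1% of all tested genes, with a median of 0.47 beside 0.05. The gene csx1, whose protein binds and stabilises atf1 mRNA under oxidative stress, had 1134 wild-type reads and 2032 deletion reads, a ratio of 1.81 (1.68 to 1.95). The genes of its binding partners Cip1 and Cip2 stood at 1.45 (1.37 to 1.53) and 1.08 (1.003 to 1.157). The kinase genes srk1 and cmk2, whose products Sty1 phosphorylates, stood at 1.39 and 1.44. The 14-3-3 protein gene rad24 had a ratio of 0.973 and sin1, named for its interaction with Sty1, one of 1.15. Of the other bZIP factor genes, zip1 stood at 0.826 (0.788 to 0.866), atf31 at 0.830 (0.698 to 0.987) and atf21 at 1.14 (0.998 to 1.31). None of these bZIP genes was past 2-fold, beside the same shares of all tested genes, and their median log2 difference was −0.26.

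Genes that control the location, the oxidation or the stability of Pap1 formed the next list. Of 6 genes, 4 had positive and 2 negative log2 differences, beside 57.1% positive over all tested genes. By the 2-fold rule tpx1, already counted in the list for redox input, was higher, beside 2.79% of all tested genes. The remaining 5 were past it in neither direction, and the median log2 difference of the list was 0.24. The nuclear export receptor gene crm1 stood at 0.890 (0.850 to 0.931), and hba1, which encodes a Ran-binding protein needed for export of Pap1, at 0.697 (0.643 to 0.755). The importin gene imp1 stood at 1.25, the ubiquitin ligase gene ubr1 at 1.24 and the thioredoxin gene trx1 at 1.13.

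**Figure D4:**
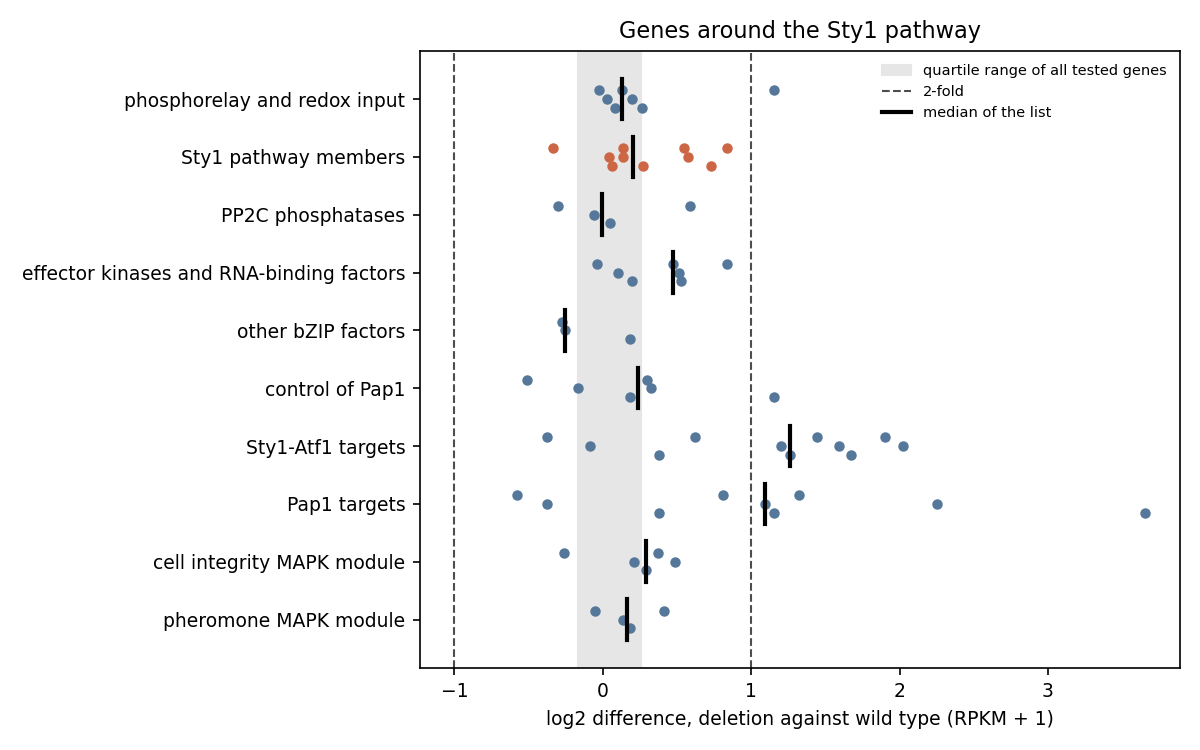
Log2 difference of RPKM + 1 between the deletion and the wild-type library for each gene of the pathway and of 9 lists around it; each point is a gene, the black bars are list medians, the grey band spans the range between the quartiles of all tested genes and the dashed lines mark 2-fold. The medians of the target lists lie at 1.26 and 1.10 and that of the pathway members at 0.21, with tpx1 shown in 3 lists and ctt1 in 2.

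Known target genes were examined next, and several were past 2-fold although no pathway member was. In the list of 11 Sty1-Atf1 targets, 7 were higher by the 2-fold rule and 4 were past it in neither direction, with a median log2 difference of 1.26, where 2.79% of all tested genes were higher. The lists were drawn up with earlier results of these data known, so these counts are a description. The stress protein gene rds1 had 3603 wild-type reads and 13419 deletion reads, a ratio of 3.76 (3.63 to 3.90). The heat shock protein gene hsp9 stood at 3.19 (2.96 to 3.45). The genes of trehalose metabolism stood at 3.05 for ntp1, the neutral trehalase, and 2.73 for tps1, a trehalose-6-phosphate synthase. The glycerol-3-phosphate dehydrogenase gene gpd1, a standard target under osmotic stress, stood at 2.30 (2.26 to 2.34), and ish1 at 2.43.

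The other target that was higher, the metallothionein gene zym1, had 2 reads against 16, a ratio of 8.08 with an interval from 1.90 to 72.4. With a filter at a mean of 5 RPKM, or with a pseudocount of 5 RPKM, 6 targets of the list were higher. Targets closest to the wild-type level were cta3, a cation-transporting ATPase gene (0.937, 0.853 to 1.03), fbp1, the fructose-1,6-bisphosphatase gene (1.31, 1.14 to 1.51), and the catalase gene ctt1 (0.766, 0.711 to 0.824). The glutathione peroxidase gene gpx1, named after its values were seen, stood at 1.54. The member pyp2 is a target of the same branch and stood at 1.70.

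In the list of 9 Pap1 targets, 5 were higher and 4 not past 2-fold, at a median log2 difference of 1.10, again beside 2.79% of all tested genes higher. This list too was drawn up with earlier results known, so its count is a description. The sulfiredoxin gene srx1 had 82 reads against 1097, a ratio of 13.5 (10.8 to 17.1). The transporter gene caf5 stood at 4.88 (4.54 to 5.24), the quinone oxidoreductase gene obr1 at 2.501, tpx1 at 2.23 and the drug efflux transporter gene pmd1 at 2.16. The thioredoxin reductase gene trr1 stood at 1.30 (1.26 to 1.34), ctt1 at 0.766 and the superoxide dismutase gene sod1 at 0.668 (0.647 to 0.690). The transporter gene bfr1, named after its values were seen, stood at 1.76. The catalase gene is in both target lists. The higher gene tpx1 is counted here and in the lists for redox input and control of Pap1. The counts of the lists are therefore not independent.

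The MAPK modules most like the Sty1 pathway were set beside it. In the cell integrity module none of 5 genes was past 2-fold, where 2.79% of all tested genes were higher and 1.14% lower. With shares this small, such a count in so short a list says little. The median log2 difference of the module was 0.29, beside 0.05 over all tested genes. The MAPK kinase kinase gene mkh1 stood at 1.41 (1.329 to 1.502), the protein kinase C gene pck2 at 1.23, the MAPK kinase gene pek1 at 1.30 and the MAP kinase gene pmk1 at 1.16 (1.10 to 1.22). The gene of the phosphatase Pmp1, which acts on Pmk1, stood at 0.832 (0.743 to 0.932). In the pheromone module none of 4 genes was past 2-fold, beside the same shares of all tested genes, and the median was 0.16. The adaptor gene ste4 stood at 1.14, the kinase genes byr2 at 1.10 and byr1 at 1.33 (1.26 to 1.40), and the MAP kinase gene spk1 at 0.966 (0.898 to 1.04). The levels of the MAP kinase genes in the wild type were 341.0 RPKM for sty1, 117.2 for pmk1 and 79.2 for spk1. No test separates the 3 modules, since each rests on the same 2 libraries.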

How the data were processed

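Per the labels, 1 wild-type and 1 ppr10 deletion culture were sequenced from Trizol-extracted RNA made into NEBNext Ultra libraries. The submitters' processing notes name Bowtie2 2.2.3, TopHat2 2.0.12 and the build ASM294v2. Which tool made the table, and its strand setting, are not stated.

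Per the file headers, the deposited table gives a count of uniquely mapped reads and an RPKM value per gene. Recomputing the authors' RPKM from reads, length and column total left differences of at most 4.99e-07. Of the lengths, 5075 are multiples of 3, hence coding lengths. A dash was read as 0. The deposited coverage score exceeds 100 in 7 genes and was used only as a description.

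Differences are log2((deletion RPKM + 1)/(wild-type RPKM + 1)). This rule of size describes the 2 libraries and not the conditions. Ratios use RPKM without the added 1, with Clopper-Pearson 95% intervals, ratios between partner genes a conditional exact interval, and levels a Poisson interval (scipy 1.17.1). PCR reads are not independent molecules, so intervals cover counting error only. TMM factors (edgeR 4.0.16) served only as an alternative scaling. The procedure was run on simulated counts with known changes and counting error alone, which checks the calculation and not the spread between cultures.

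Members and the 9 lists (53 genes) were chosen with earlier results of these data known. The text names all members, ppr10, every gene of 7 lists, target genes past 2-fold, the 3 targets of each list nearest to no difference, and the 3 genes closest to sty1 and to atf1. Names, chromosomes and gene neighbours come from ASM294v3, a later build, which matched 5049 identifiers and left 27 unmatched, so no coordinates or sequences are given.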

Additional observations from a re-analysis of the deposited data

How the results depend on the processing

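No paired analysis was possible because there is a single library of each genotype, and leaving out replicates could not be tried. Under 5 other scalings and pseudocounts of 0.1 and 5 RPKM, the log2 difference of each member moved by less than the half-width of its counting interval. With scaling to the median gene, TMM or median-of-ratios factors, wis4 went from 0.04 to −0.01, so that 8 members were positive in place of 9. The median of the members ranged from 0.14 to 0.27 when a member was left out and from 0.16 to 0.25 over the scalings. No member was past 2-fold under any scaling, pseudocount or filter. With a 1.5-fold rule, 2 members were higher, atf1 and pyp2, and pyp1 fell just short of it because of the added 1 RPKM. That rule gave 396 genes higher and 224 lower in all, against 139 and 57 by the 2-fold rule, and a 3-fold rule gave 62 and 19, with 6 in place of 12 higher among the genes of the other lists. A pseudocount of 5 RPKM gave 37 lower genes. The ratio intervals of wis4 and win1 include 1 with the RPKM scaling, so differences as small as theirs were not resolved. Depth limits the comparison for genes with few reads, such as zym1, with 18 reads in all. Of the counts and medians of single lists, 269 values stayed within 1.5 times (counts) or within the counting interval (medians) and 10 moved, 6 of them counts under another fold rule and 4 the median of the Pap1 targets, which went from 1.10 to 1.05.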
